A study of Pinellia ternata with 6 samples.

Results

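The 8 unigenes described here are annotated to photosynthesis, to its electron transport or to related redox metabolism in seedlings of Pinellia ternata, a medicinal plant. They were taken from the study's lists of differentially expressed unigenes. Of the 8, 6 stand under Photosynthesis or under the photosynthetic electron transport chain and have no protein name in the sources used here. The other 2, from further lists of that kind, are best matches to NAD(P)H-quinone oxidoreductase subunit O and to NAD kinase 2. The lists were shortened in places in the sources used here, so a member may stand under further terms than those given. The 8 were part of 62591 unigenes in the table analysed, and all 8 were among the 28536 that reached 1 FPKM in 3 or more of the 6 samples. The study assembled more unigenes than that table holds, so ranks and summed levels given below refer to a part of the assembly. FPKM counts fragments relative to the length of the transcript and to the size of the library, so levels of different unigenes can be set side by side, and the authors had also scaled each sample by a factor (TMM). A unigene is a gene-level group of transcripts from the de novo assembly, and its level is the sum of its isoforms.

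T2 line is an octoploid (8x, 2n = 104) multiplied from a single selected plant by tissue culture, and T2Plus line (16x, 2n = 208) is its derivative after chromosome doubling with colchicine. Whole seedlings of both lines were collected at 30 days after planting, and 3 samples of each line were sequenced. The study describes the replicates of a line as independent and biological. Its protocol mixes 5 seedlings from each group without saying if the 3 replicates had separate mixes, so p-values measure only the spread between these libraries, which may be partly technical. With 1 line of each ploidy, the difference in ploidy and any other difference between the lines cannot be told apart. Since whole seedlings were ground, fewer green cells and less RNA per green cell cannot be told apart either.

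In the light reactions, electrons taken from water pass through photosystem II, the plastoquinone pool, the cytochrome b6f complex and photosystem I, and end on NADP. The chloroplast NAD(P)H dehydrogenase-like (NDH) complex, to which subunit O belongs, returns electrons from the stroma to plastoquinone and so takes part in cyclic electron flow around photosystem I. NAD kinase 2, known from Arabidopsis, phosphorylates NAD to NADP in the chloroplast and so supplies the final electron acceptor.

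All 8 unigenes were lower in T2Plus line than in T2 line, by 2.04- to 5.51-fold in mean FPKM with a median of 3.25-fold. The lowest T2 sample lay above the highest T2Plus sample for each of the 8, which was so for 16.4% of all unigenes kept and for 25.7% of those averaging 5 FPKM or more. Each of the 8 also passed the threshold for a down-regulated unigene in the fit across all unigenes (limma, adjusted p at most 0.05 and at least 2-fold), against a background of 6.3% (8.91% of those averaging 5 FPKM or more). All 8 stand in lists that the study drew up on this same contrast of these same samples, so the falls are a description of the members, they carry no test here, and nothing is read from those shares. The values of each member come first, then how the falls differ among members, how levels stand to each other within a sample, and how the values depend on scaling.

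**Figure D1:**
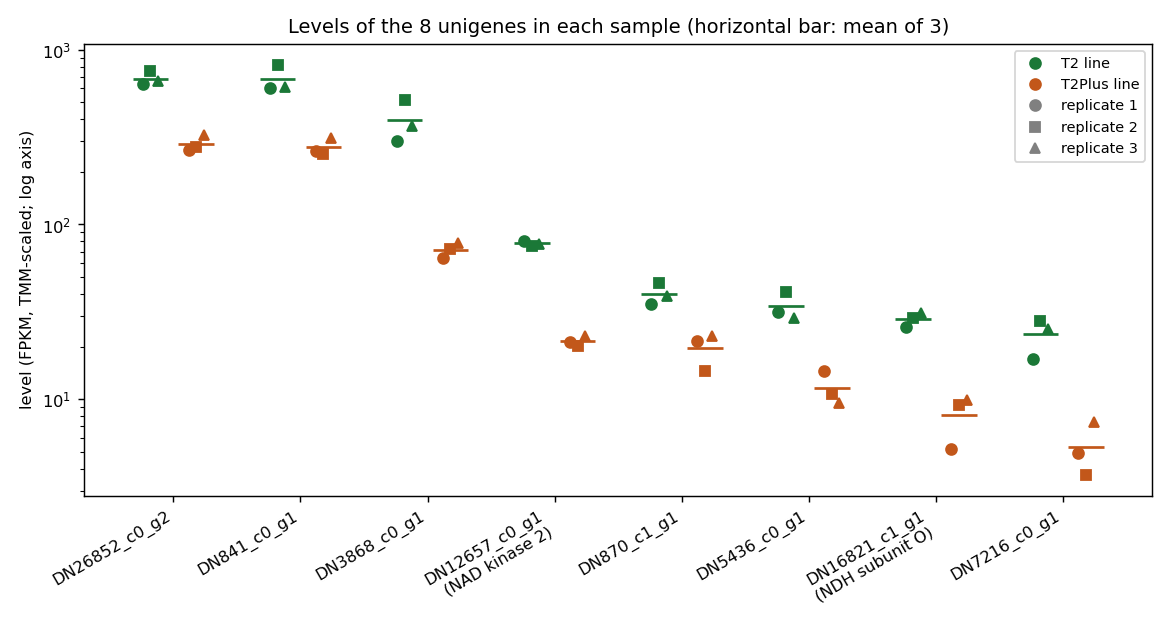
Level of each of the 8 unigenes (FPKM with the authors' TMM scaling, log axis) in the 3 samples of T2 line and the 3 of T2Plus line, with the mean of each line as a horizontal bar and the unigenes ordered by level. The samples of the 2 lines do not overlap for any of the 8, and the gap is widest for DN3868_c0_g1 (mean 395 against 71.6 FPKM).

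The most strongly expressed members carried the KEGG pathway Photosynthesis in the study's lists and no protein name in the sources used here. TRINITY_DN26852_c0_g2 (shortened, like all unigene names after their first use, to DN26852_c0_g2) was measured at 635, 759 and 660 FPKM in T2 line against 268, 276 and 325 FPKM in T2Plus line. It had the highest mean of the 8 in both lines, and its mean of 684 ± 65.4 FPKM in T2 line (SD, n = 3) was 2.36-fold that of 290 ± 30.9 FPKM in T2Plus line. TRINITY_DN841_c0_g1, listed under Photosynthesis and under the response to gibberellin, stood at nearly the same level, with 605, 823 and 611 FPKM in T2 line against 265, 254 and 313 FPKM in T2Plus line. Its fold was 2.45 (680 ± 124 against 277 ± 31.3 FPKM). The ranges of these 2 members overlapped in both lines. Within a sample, DN26852_c0_g2 was above DN841_c0_g1 in 3 of 3 T2Plus samples, by a ratio of only 1.01 to 1.08. In T2 line it was above in 2 of 3 samples, so no order is given there.

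TRINITY_DN3868_c0_g1 came next in level and had the largest fall. It was measured at 302, 518 and 364 FPKM in T2 line against 63.9, 72.3 and 78.6 FPKM in T2Plus line, a fold of 5.51 between means of 395 ± 111 and 71.6 ± 7.35 FPKM (log2 fold change -2.41, SE 0.205, on the log2(FPKM + 1) scale that is used throughout). Over the 9 pairs of a T2 sample with a T2Plus sample the fold ran from 3.84 to 8.11. The T2 samples were spread widely here, with T2 replicate 2 far above the others, yet the lowest T2 sample was still far above the highest T2Plus sample.

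The members listed under the photosynthetic electron transport chain were expressed at a much lower level. TRINITY_DN5436_c0_g1, which was also listed under the light reaction and under the KEGG pathway, had 31.7, 41.2 and 29.1 FPKM in T2 line against 14.5, 10.7 and 9.52 FPKM in T2Plus line, a fold of 2.94 (34.0 ± 6.37 against 11.6 ± 2.59 FPKM). TRINITY_DN870_c1_g1, listed under the chain and the KEGG pathway, had 34.9, 46.5 and 39.1 FPKM against 21.6, 14.5 and 22.9 FPKM. It showed the smallest fall of the 8, 2.04-fold (40.2 ± 5.84 against 19.6 ± 4.54 FPKM, log2 fold change -1.01, SE 0.208), and stands just inside the 2-fold threshold.

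TRINITY_DN7216_c0_g1 carried 9 terms in the lists at hand. Among them were the electron transport chain, photoinhibition, negative regulation of the light reaction, the response to high light intensity and oxylipin biosynthesis. It was the weakest member in both lines, with 17.1, 28.1 and 25.2 FPKM in T2 line against 4.92, 3.68 and 7.42 FPKM in T2Plus line. Its fold of 4.40 was second only to that of DN3868_c0_g1, but it was also the least precisely measured, with folds from 2.30 to 7.65 over the 9 pairs and the largest standard error of the 8 (log2 fold change -1.96, SE 0.296). A fold near that of DN870_c1_g1 and a fold above that of DN3868_c0_g1 both lie in its range.

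The 2 redox members were nearly equal in fold and very different in precision. The subunit O unigene TRINITY_DN16821_c1_g1, listed under assembly of the NADH dehydrogenase complex (plastoquinone), had 26.1, 29.3 and 31.2 FPKM in T2 line against 5.16, 9.24 and 9.84 FPKM in T2Plus line, a fold of 3.57 (28.9 ± 2.60 against 8.08 ± 2.54 FPKM). T2Plus replicate 1 stood well below the other 2 T2Plus samples, and the fold ran from 2.65 to 6.04 over the pairs. The NAD kinase 2 unigene TRINITY_DN12657_c0_g1, listed under cofactor metabolism, had 80.8, 75.1 and 77.7 FPKM against 21.1, 20.2 and 22.9 FPKM, a fold of 3.64 (77.9 ± 2.84 against 21.4 ± 1.39 FPKM). It was the tightest of the 8, with folds from 3.28 to 4.001 and a coefficient of variation of 3.64% in T2 line against 6.48% in T2Plus line.

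The falls of the means were not of 1 size. The log2 fold changes covered a range of 1.40, from -1.01 to -2.41, with standard errors of 0.104 to 0.296, and their median was -1.62 against 0.0997 over all unigenes tested. In mean FPKM, 4 members fell by 3-fold or more and 4 by 2- to 3-fold, and the largest fold was 2.70 times the smallest. Spread limited what could be separated: of the 28 pairs of members, the ranges of the fold overlapped in 22 and did not in 6. All 6 of these set either DN3868_c0_g1 or the NAD kinase 2 unigene above one of DN26852_c0_g2, DN841_c0_g1 and DN870_c1_g1. Each member was measured in the same samples, so the folds share what deviates in a whole sample, and a ratio within a sample does not.

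**Figure D2:**
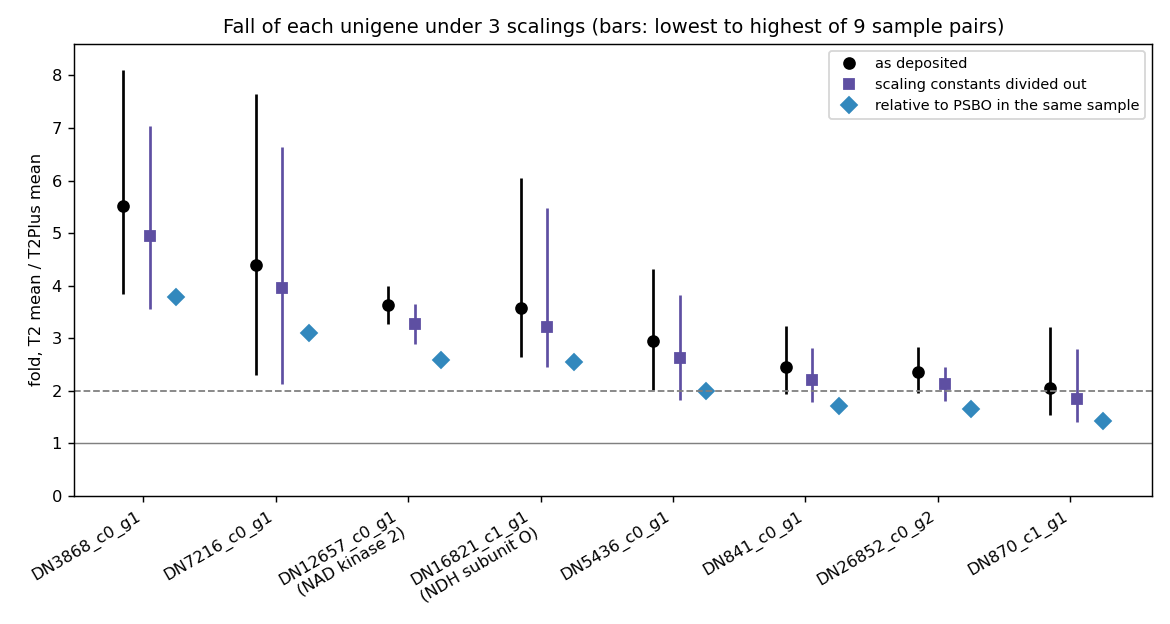
Fold between the means of T2 line and T2Plus line for each unigene: from the deposited values, from values with the authors' scaling constants divided out, and from levels relative to the PSBO unigene in the same sample. Vertical bars, drawn for the first 2, run from the lowest to the highest of the 9 sample pairs, the dashed line marks 2-fold, and DN870_c1_g1 drops below it once the constants are divided out (1.84).

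Within a sample, the members were compared through their ratio to DN841_c0_g1, which any scaling by a constant for each sample leaves as it is. DN26852_c0_g2 kept pace with it: the ratio was 1.05, 0.922 and 1.08 in T2 line against 1.01, 1.08 and 1.04 in T2Plus line. DN3868_c0_g1 did not: its ratio was 0.498, 0.630 and 0.595 in T2 line against 0.242, 0.284 and 0.251 in T2Plus line, a shift of -1.15 on the log2 scale with no overlap between the lines. Relative to DN26852_c0_g2 the same unigene went from a mean ratio of 0.570 to 0.247.

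The ratio of the NAD kinase 2 unigene to DN841_c0_g1 was also lower in T2Plus line (0.133, 0.0913 and 0.127 against 0.0798, 0.0794 and 0.0732, log2 shift -0.58), and so was that of DN7216_c0_g1 (0.0282, 0.0342 and 0.0412 against 0.0186, 0.0144 and 0.0237, log2 shift -0.88). Both were without overlap, although T2 replicate 2 came close to the T2Plus samples for NAD kinase 2. For DN5436_c0_g1, DN870_c1_g1 and subunit O the lines overlapped, with log2 shifts of -0.28, 0.23 and -0.60. In all, 3 of 7 ratios to DN841_c0_g1 were without overlap, while the share was 73.3% among unigenes averaging 5 FPKM or more. Both DN841_c0_g1 and these 7 were chosen because they fell in this contrast, and the other unigenes were not, so nothing is read from the difference.

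**Figure D3:**
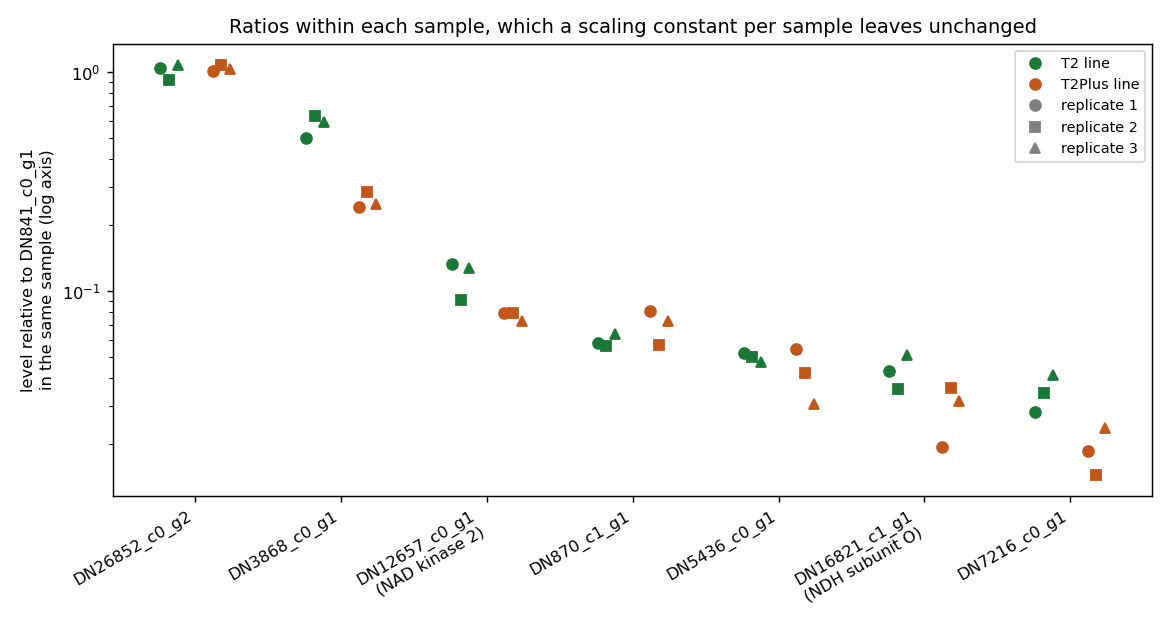
Level of 7 unigenes relative to DN841_c0_g1 in the same sample (log axis), for the 3 samples of each line. DN26852_c0_g2 lies near 1 in both lines, and DN3868_c0_g1 moves from 0.498 to 0.630 in T2 line down to 0.242 to 0.284 in T2Plus line.

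Of all 28 pairs of members, the ratio within a sample did not overlap between the lines for 13 and overlapped for 15. The share without overlap was 48.4% over all pairs of unigenes averaging 5 FPKM or more and above 0 in every sample. As the members were chosen on this contrast, nothing is read from that share either. The 2 redox unigenes kept a like ratio: subunit O relative to NAD kinase 2 was 0.323, 0.390 and 0.401 in T2 line and 0.244, 0.458 and 0.429 in T2Plus line, with means of 0.371 and 0.377. The ratio of DN870_c1_g1 to DN5436_c0_g1, which are both listed under the electron transport chain, was higher in T2Plus line (1.10, 1.13 and 1.34 against 1.49, 1.35 and 2.405), with hardly any gap between the lines. The ratio of NAD kinase 2 to DN870_c1_g1 went from a mean of 1.97 to 1.13, again without overlap.

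The order of the mean levels was the same in both lines: DN26852_c0_g2, DN841_c0_g1, DN3868_c0_g1, NAD kinase 2, DN870_c1_g1, DN5436_c0_g1, subunit O and DN7216_c0_g1. The ranges of neighbours over the samples of a line overlapped, except that DN841_c0_g1 lay above DN3868_c0_g1 and DN3868_c0_g1 above NAD kinase 2 in both lines. NAD kinase 2 lay above DN870_c1_g1 without overlap in T2 line, but the 2 overlapped in T2Plus line. Within each of the 6 samples, however, DN870_c1_g1 was above DN5436_c0_g1 (ratio 1.10 to 2.405) and subunit O above DN7216_c0_g1 (ratio 1.04 to 2.51).

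The levels of the 8 summed to 1963 ± 313 FPKM in T2 line against 705 ± 73.3 FPKM in T2Plus line (n = 3 each). That was 0.334 ± 0.0327% and 0.132 ± 0.0132% of the summed FPKM of the isoforms at hand in a sample. The 3 strongest members held 89.0% to 90.5% of the sum of the 8 in T2 line and 89.9% to 91.2% in T2Plus line. The sum of the 8 thus speaks mainly of them. Within it, the share of DN3868_c0_g1 was 19.9 ± 2.46% in T2 line against 10.2 ± 0.689% in T2Plus line, and the shares of DN26852_c0_g2 (35.1% and 41.1%) and DN841_c0_g1 (34.6% and 39.3%) were higher in T2Plus line.

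Ranks among the 62591 unigenes at hand in a sample, with 1 for the highest level, do not depend on scaling by a constant either. Unigenes of the assembly outside the table are not ranked. DN26852_c0_g2 ranked 54, 64 and 52 in the T2 samples and 155, 157 and 135 in the T2Plus samples, and DN841_c0_g1 ranked 59, 52 and 58 against 157, 175 and 142. Both were thus still among the strongest unigenes at hand in the T2Plus seedlings. DN3868_c0_g1 was not: it went from ranks 191, 124 and 141 to ranks 1554, 1307 and 1227.

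NAD kinase 2 went from ranks 1265, 1584 and 1315 to 5308, 5422 and 4843, and subunit O from 4532, 4205 and 3895 to 15333, 9934 and 9489. The weakest member, DN7216_c0_g1, ranked 6457, 4339 and 4742 in T2 line against 15788, 17649 and 11441 in T2Plus line. For all 8, each T2Plus rank was further down than each T2 rank, which was so for 17.7% of unigenes kept. The contrast is again the one that chose the members.

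Isoforms could be compared for DN841_c0_g1 alone, since the other 7 members had 1 isoform each in the table. Its main isoform, i12, had 561, 759 and 566 FPKM in T2 line against 220, 213 and 261 FPKM in T2Plus line, a fold of 2.71. The second isoform, i19, had 44.3, 58.3 and 45.7 FPKM against 38.5, 36.1 and 41.6 FPKM, a fold of 1.28. The difference of this unigene between the lines thus lay almost wholly in i12, and the sum of the other isoforms at hand had a fold of 1.12.

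As a share of the unigene, i12 was 92.5 ± 0.262% in T2 line against 83.5 ± 0.249% in T2Plus line, and i19 was 7.29 ± 0.196% and 14.0 ± 0.646%. Isoform i2 was listed at 0 in all 3 T2 samples but at 5.72, 5.20 and 5.07 FPKM in the T2Plus samples, and i11 was above 0 in 1 sample of each line (6.20 FPKM in T2 replicate 2 and 5.05 FPKM in T2Plus replicate 3). The mean share of i12 fell by 8.95 percentage points, which was not rare. Of 1177 unigenes with several isoforms and an average of 5 FPKM or more, 41.2% had a change at least as large, and the shares of the lines did not overlap in 27.4%. RSEM divides reads between isoforms that share sequence, so the level of a minor isoform is less certain than the sum. The isoforms at hand of DN841_c0_g1 summed to less than the study's own unigene value in every sample, by 0.142% to 1.92%. The largest shortfall is close to the mean share of i2 in T2Plus line (1.94%), so the minor isoforms at hand may be incomplete. For the other members the difference from the study's value was at most 0.0653%.

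**Figure D4:**
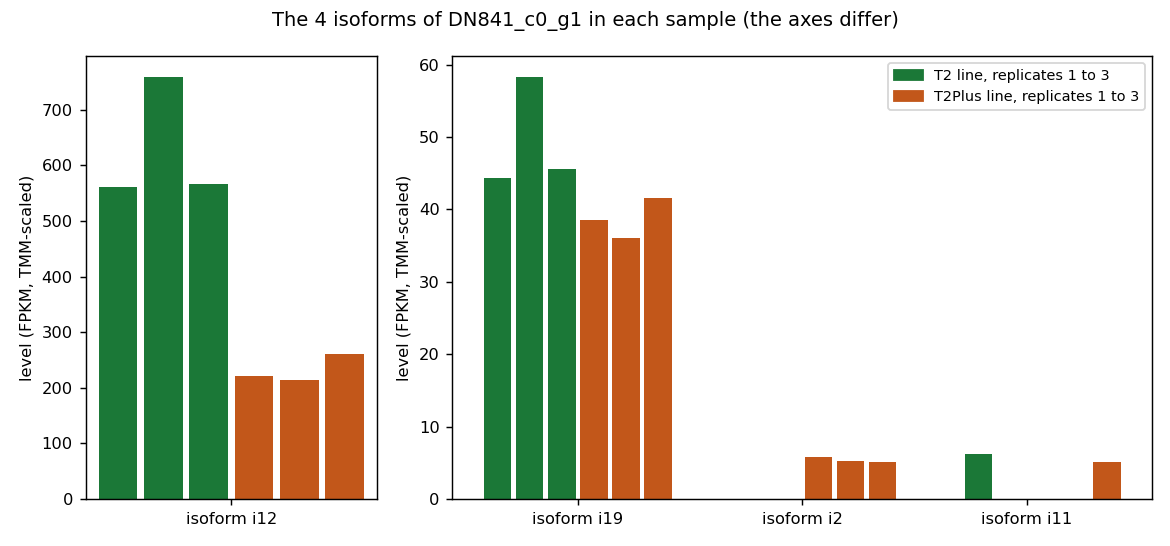
Level (FPKM) of the 4 isoforms at hand of DN841_c0_g1 in each sample, with separate axes for i12 and for the weaker isoforms. There is 1 bar for each of replicates 1 to 3 of T2 line and then of T2Plus line. The bars of i12 reach 561 to 759 FPKM in T2 line but only 213 to 261 FPKM in T2Plus line, those of i19 change little (fold 1.28), and i2 has bars in T2Plus line only.

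Other unigenes of the same read clusters, which the assembler grouped by shared sequence, were looked up after the values of the members had been seen. There were 4 in the table, for 3 members. DN870_c0_g1, beside the member DN870_c1_g1, had 38.3, 33.1 and 37.3 FPKM in T2 line against 40.6, 45.8 and 45.0 FPKM in T2Plus line, so the samples of T2Plus line lay above those of T2 line (log2 fold change 0.27, SE 0.114, limma adjusted p = 0.174). DN3868_c1_g1 had a mean of 24.95 ± 3.37 against 17.7 ± 0.798 FPKM (log2 fold change -0.47, adjusted p = 0.0778) and DN3868_c2_g1 of 15.9 ± 7.82 against 4.09 ± 2.78 FPKM (log2 fold change -1.77, adjusted p = 0.0612). These did not pass the test, and DN841_c6_g1 was listed at 0 in every sample. Where reads of such relatives can map to each other, their levels are uncertain.

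T2 replicate 2 stood apart from the other libraries. Its median log2 level over the unigenes kept was 1.91 against 2.22 to 2.31 in the others, it had 28177 unigenes above 0 against 30699 to 33997, and 1 read was worth 0.706 of its value in T2 replicate 1 against 1.02 to 1.21 in the remaining 4, as in a more deeply sequenced library. The summed FPKM of the isoforms at hand ran from 527915 to 626556, the highest in T2 replicate 2. This library was the highest T2 sample for 6 of the 8 members, all but subunit O and NAD kinase 2. It was so for 31.8% of unigenes kept, 45.6% of those averaging 5 FPKM or more and 75% of those averaging 100 FPKM or more.

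Its median deviation from the T2 mean over the members was 0.25 on the log2 scale. Without it, the log2 fold change of DN3868_c0_g1 was -2.20 in place of -2.41, that of NAD kinase 2 was -1.84 in place of -1.82, and that of DN870_c1_g1 was -0.90, under the 2-fold threshold. The part of this library's difference in the values of the members was otherwise not tested. In T2Plus line, replicate 3 was the highest sample for 7 of the 8 members, all but DN5436_c0_g1, against 34.8% of unigenes kept. That share was not worked out for unigenes of like level, so nothing is read from the difference.

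The size of the falls depended on scaling. The deposited values carry a constant for each sample, of 1.08, 1.13 and 1.08 in T2 line and 0.983, 0.985 and 1.00 in T2Plus line, which by itself widens a fall. With these constants divided out, the folds ran from 1.84 for DN870_c1_g1 to 4.94 for DN3868_c0_g1, and 7 of the 8 members stayed at 2-fold or more. The median log2 fold change over all unigenes was then higher by 0.111. Measured from that median, all 8 members were lower by 2-fold or more, as they were with the deposited values and with each sample rescaled to the same sum.

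Quantile normalization, which forces the same distribution on every sample, left 5 members at 2-fold or more: the log2 fold changes were -0.82 for DN26852_c0_g2, -0.88 for DN841_c0_g1 and -0.88 for DN870_c1_g1. For subunit O and DN7216_c0_g1 it changed little (-1.71 and -1.96). The members nearest the 2-fold threshold were thus the ones whose side of it changed with the scaling, and none of the 8 changed direction.

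For a reference within green tissue, the members were set against the unigene for oxygen-evolving enhancer protein 1 (PSBO, DN43326_c0_g1), which stabilizes the manganese cluster of photosystem II. It had 3429, 4697 and 3425 FPKM in T2 line against 2443, 2541 and 3026 FPKM in T2Plus line, a fold of 1.44 that did not pass the test (log2 fold change -0.52, SE 0.164, limma adjusted p = 0.0834). Its samples too were lower in T2Plus line without overlap, so a part of each fall goes with it when the ratio is taken.

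Relative to PSBO, DN841_c0_g1 was very even within each line, at 17.6%, 17.5% and 17.9% of it in T2 line and 10.8%, 10.01% and 10.3% in T2Plus line. DN3868_c0_g1 went from a mean of 10.2% to 2.69%, a fold of 3.78, and DN870_c1_g1 from 1.05% to 0.736%, a fold of 1.43. Subunit O (0.765% to 0.300%) and NAD kinase 2 (2.07% to 0.806%) had folds of 2.55 and 2.58. All 8 ratios were lower in every T2Plus sample than in every T2 sample, against 8.15% of unigenes, in the contrast that chose the members.

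Other chloroplast proteins were taken from the study's annotation, by protein name and not by their change. Only a part of that annotation was at hand, so the list is not complete. Of 46 such unigenes in the annotation at hand, 25 were in the table and 23 were tested. By limma, 0 were up-regulated (1 was higher and 7 were lower at an unadjusted p under 0.05) and 2 were down-regulated, or 8.70%, beside 7.22% up-regulated and 6.3% down-regulated of all unigenes, and the median log2 fold change was -0.09 beside 0.0997 over all unigenes. With the constants divided out that median was 0.03, so no direction is given for it. The 8 members, with a median of -1.62, were chosen on this contrast and the list was not, so the medians are given side by side only.

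The 2 down-regulated chloroplast unigenes were DN7933_c0_g1, a match to the uncharacterized oxidoreductase At1g06690, and DN11462_c0_g2, a match to the probable plastid-lipid-associated protein 13. The first had 60.2, 67.8 and 54.3 FPKM in T2 line against 9.18, 16.3 and 18.9 FPKM in T2Plus line (log2 fold change -2.02, SE 0.263, limma adjusted p = 0.00445). The second had 44.0, 55.2 and 39.4 FPKM against 14.5, 13.1 and 16.4 FPKM (log2 fold change -1.58, SE 0.168, adjusted p = 0.00239). Their falls were of the size of those of the members.

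A further 2 of the 23 passed the adjusted p but not the 2-fold threshold on the log2 scale, and are named after their values were seen. DN4808_c1_g1, a match to ABC transporter D family member 2, was just outside the threshold (log2 fold change -0.98, adjusted p = 0.00443), close to DN870_c1_g1 just inside it. DN4802_c0_g2, a match to the DNA helicase RECG, had a log2 fold change of -0.70 (adjusted p = 0.0433). The unigene for magnesium-chelatase subunit ChlD of chlorophyll synthesis, DN74976_c0_g1, was weak and variable (3.04 ± 2.93 against 3.88 ± 2.82 FPKM, adjusted p = 0.736).

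**Figure D5:**
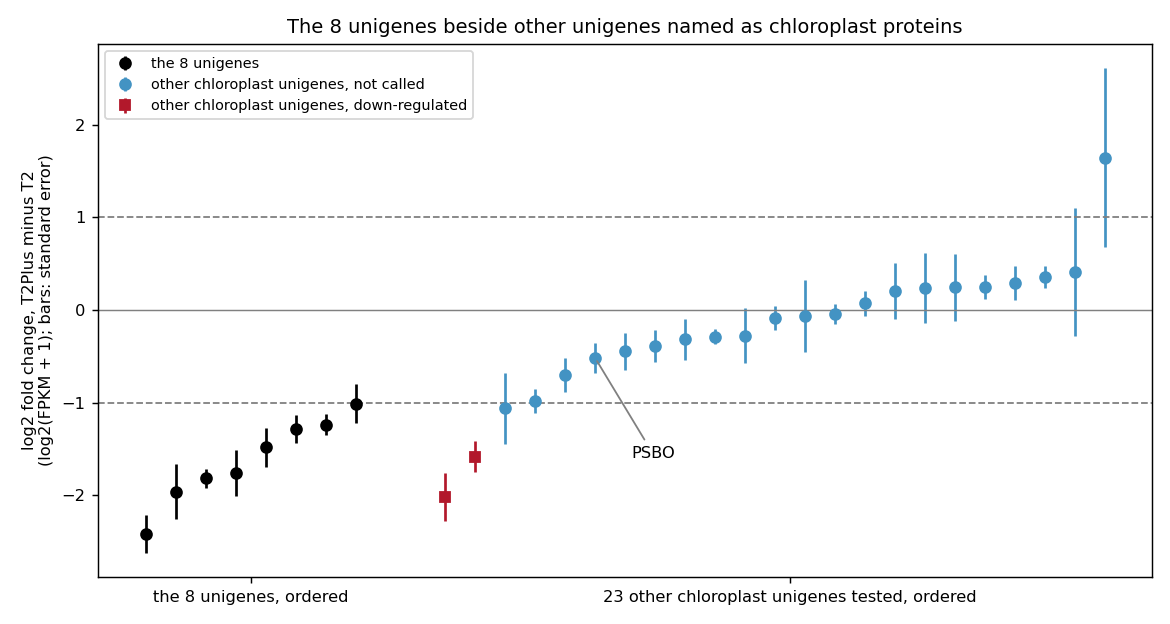
Log2 fold change of T2Plus line against T2 line, with standard errors, for the 8 unigenes and for 23 other unigenes annotated as chloroplast proteins, each set ordered by size. The 8 lie between -2.41 and -1.01, while 2 of the 23 passed the test and PSBO lies at -0.52, and dashed lines mark 2-fold.

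Among unigenes annotated to the thylakoid or to a photosystem in the part of the annotation at hand, 13 were listed and 6 were tested. The 2 that were down-regulated are DN7933_c0_g1 and DN11462_c0_g2 again, 0 were up-regulated (0 were higher and 4 were lower at an unadjusted p under 0.05), and the median was -0.40. The study's own lists for Photosynthesis and the electron transport chain, as far as at hand, held 11 further unigenes. Of these, 6 were tested and 5 were down-regulated, but they were chosen on the same samples. They ran from -1.46 for DN4156_c0_g1 (264 against 95.3 FPKM) to -1.11 for DN10068_c0_g1, within the range of the 8. The isoforms at hand held 88.0% to 100% of the study's value for DN4156_c0_g1, depending on the sample, so its fold is less certain. DN2363_c0_g1 had a log2 fold change of 0.98 and was not called (adjusted p = 0.0899), and the isoforms at hand held only 2.62% to 34.9% of the study's value for it.

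The unigenes whose pattern over the 6 samples was most like the mean of the 8 were found by the root mean square distance between centred log2 profiles, over 11994 unigenes averaging 5 FPKM or more. The distance was 0.915 at the median of those unigenes and 0.174 to 0.420 for the members themselves, each of which departs from the mean profile in its own way. The 3 nearest of any kind were DN5609_c0_g1 (0.0555), DN18573_c0_g2 (0.0728) and DN248_c2_g1 (0.0737), none with a protein name in the annotation at hand. DN18573_c0_g2 was strong, at 503, 671 and 496 FPKM in T2 line against 168, 176 and 198 FPKM in T2Plus line.

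Of the 157 compared unigenes with a protein name, the nearest was DN18485_c0_g1, a match to the transcription factor MYB78, at a distance of 0.0819. It was followed by the plastid-lipid-associated protein 13 unigene (0.0951), by DN4884_c0_g1, a match to the CBL-interacting protein kinase 11 of calcium signalling (0.168), by DN35729_c1_g1, a match to the peroxisomal enoyl-CoA delta isomerase 2 of fatty acid breakdown (0.321), and by the oxidoreductase DN7933_c0_g1 (0.340). The MYB78 unigene had 21.3, 30.5 and 24.96 FPKM in T2 line against 7.53, 6.75 and 9.98 FPKM in T2Plus line, highest in T2 replicate 2 and in T2Plus replicate 3 as most of the 8 were. The likeness is a description over 6 samples, in which the difference between the lines is the main part.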

How the data were processed

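RNA-seq reads of 6 seedling libraries were, according to the study's methods and the submitters' processing notes, trimmed with Trimmomatic 0.36, checked with FastQC 0.11.5 and joined by Trinity into a de novo assembly with a k-mer of 25. The authors deposited FPKM values for each isoform and sample, estimated with RSEM and scaled by TMM, a factor per sample that assumes most transcripts unchanged. RSEM writes both FPKM and TPM. The file names neither, and the study's term, FPKM, is used. The versions of Trinity and RSEM were not given in the sources used here. Read totals for each library stand in the study and are not repeated here. The FPKM values themselves hold none, so depth was compared through the value of 1 read among low isoforms, and no counting interval is given.

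Isoforms were summed per unigene, and a unigene was kept if 3 or more samples reached 1 FPKM. The comparison of the lines used limma 3.58.1 (R 4.3.3), fitted to log2(FPKM + 1) with a variance trend on intensity, and Benjamini-Hochberg adjustment over all unigenes kept. This scale understates the change of weak unigenes. Scaling constants per sample were the median ratios of the deposited values to the study's unscaled unigene table over 342 unigenes. The fit was tested on simulated data with 28536 unigenes, where 78 of 100 unigenes lowered by a log2 of 2 and 85 of 100 lowered by a log2 of 3 were recovered with 7 false calls. The lowered unigenes were all well expressed. Python 3.11.15, numpy 2.4.6, pandas 2.3.3 and matplotlib 3.10.9 were used.

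The members and the lists were chosen with earlier results of these data known. Named are the 8 members, the called and 6 preset unigenes of the chloroplast and thylakoid lists (ferredoxin C 2, the membrane-associated 30 kDa protein, chlorophyllase-1 and FTSH 7 were not analysed here), the extremes of the study's own lists, the mitochondrial electron transport unigenes, and the 5 named and 3 other unigenes of the most similar pattern. Others are marked where they appear. Alternatives tried were pseudocounts of 0.1 and 0.5, the highest isoform, other scalings, each sample left out, the replicate number as a block, other filters, no trend and the adjusted p alone. Unigene sequences were not used here.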

Additional observations from a re-analysis of the deposited data

How the results depend on the processing

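Over 13 alternatives for each of the 8 members, 104 log2 fold changes in all, each stayed below 0, from -0.82 to -2.59, and 97 moved by less than the spread between replicates. Some of the 97 could not move, or not that far. The replicate block leaves each log2 fold change as it is, and the highest isoform can change only that of DN841_c0_g1. Leaving out a sample cannot shift a log2 fold change by as much as that spread. Nor can it bring the value to 0, since the lines do not overlap for any member. These alternatives are thus no check of direction or of movement beyond the spread. The 7 that moved further were, under quantile normalization, DN3868_c0_g1 (-2.11), DN26852_c0_g2 (-0.82), DN841_c0_g1 (-0.88) and NAD kinase 2 (-1.67), with the constants divided out, DN26852_c0_g2 (-1.08) and NAD kinase 2 (-1.67), and with sums of 1000000, NAD kinase 2 (-1.70). Members at 2-fold or more numbered 5 under quantile normalization and 7 to 8 with a sample left out. With a sample left out, the median ran from -1.66 to -1.54 and the range of the falls from 1.25 to 1.61, and DN870_c1_g1 ran from -1.13 to -0.82, under 2-fold without T2 replicate 2 (-0.90) or T2Plus replicate 2 (-0.82).

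The ratio of DN870_c1_g1 to DN841_c0_g1 changed direction under quantile normalization (log2 shift -0.022 in place of 0.23), and the shifts of DN7216_c0_g1 and NAD kinase 2 grew to -1.28 and -0.83. With the highest isoform alone, the shift of DN26852_c0_g2 was 0.19, since the fall of i12 exceeds that of its unigene. The shift of DN3868_c0_g1 ran from -1.25 to -1.08 with a sample left out. ChlD went from 0.41 to -0.16 without T2 replicate 2 and to -0.032 without T2Plus replicate 1, in a range of -0.16 to 0.97. Of the chloroplast list, 4 were down-regulated by the adjusted p alone, and 2 to 3 with a sample left out. The causes were not tested.

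Over all unigenes, 2061 were up-regulated and 1799 down-regulated. These became 1073 and 1142 of 49574 without a filter on low values, 753 and 1050 of 14941 when the mean had to reach 5 FPKM, and 1463 to 1947 and 1270 to 1628 with a sample left out. With the replicate number as a block they were 1169 and 1146. The deviations of same-numbered samples had correlations of 0.0366, -0.0327 and -0.0665, and those of the other combinations ran from -0.0802 to 0.108. With 3 replicates, such values cannot decide if the numbers pair the samples, and the labels do not say. The number of samples limits precision, and the depth of the libraries was used only in relative terms.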

Other observations

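The part of the annotation at hand assigned 4 unigenes to mitochondrial electron transport. Of these, 2 were in the table and tested, both matches to cytochrome c oxidase subunit 6a of the respiratory chain. DN35785_c0_g1 had 15.2, 16.0 and 24.8 FPKM in T2 line against 11.2, 11.04 and 2.75 FPKM in T2Plus line (log2 fold change -1.23, SE 0.497, limma adjusted p = 0.157). DN12688_c0_g3 had 22.8, 43.1 and 22.2 FPKM against 7.88, 20.9 and 14.0 FPKM (log2 fold change -1.02, SE 0.399, adjusted p = 0.146). Neither passed the adjusted test, while both were lower at an unadjusted p under 0.05. The log2 fold change of the first was -0.67 without T2Plus replicate 3, and that of the second was -0.67 without T2Plus replicate 1.

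Of the thylakoid unigenes, the metalloprotease FTSH 9 (DN12600_c1_g1), named after its values were seen, was measured more evenly than the members, at 202, 197 and 206 FPKM in T2 line against 159, 165 and 170 FPKM in T2Plus line. The lines did not overlap, the log2 fold change was -0.29 (SE 0.0771) and the limma adjusted p was 0.0509. This difference depended on scaling. It was -0.13 with the constants divided out (limma adjusted p = 0.305) and -0.15 with sums of 1000000 (adjusted p = 0.315). Under quantile normalization it was -0.025 (adjusted p = 0.906). FTSH proteases degrade damaged membrane proteins of chloroplasts and mitochondria.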
